A study of Homo sapiens with 2 samples.

Results

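The eIF2 and eIF2B set holds 10 genes, taken by symbol from the 58302 rows of the deposited gene table. They are the eIF2 subunit genes EIF2S1 (alpha), EIF2S2 (beta) and EIF2S3 (gamma), the EIF2S3 retrocopy EIF2S3B, the eIF2B subunit genes EIF2B1 to EIF2B5 (alpha to epsilon) and the eIF2 assembly factor gene CDC123. Each symbol stood in the table once. Values came from 2 RNA-seq libraries of HL60 cells, an established line of human acute myeloid leukemia with promyelocyte features, which carried EIF2S3 in the Retro-X Tet-Off Advanced system. One library was labelled DOX(-) and came from untreated cells, and the other was labelled DOX(+) and came from cells given doxycycline (DOX), which by the design shuts the transgene off. Both groups carry the transgene, and HL60 cells without it were not analysed here. Whether the line is a single clone, and for how long and at what dose doxycycline was given, is not given in the sources used here. Doxycycline and transgene state differ together between the libraries and cannot be told apart. With 1 library per condition there is no replicate check and no test, and all differences below are between these libraries.

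eIF2 is the GTP-binding factor that brings the initiator methionyl-tRNA to the small ribosomal subunit. Its gamma subunit binds GTP and the tRNA, its beta subunit contacts the GTPase-activating factor eIF5, and its alpha subunit carries the serine that the stress kinases phosphorylate. eIF2B is the exchange factor that reloads eIF2 with GTP. It holds equal copies of its subunits, with EIF2B5 (epsilon) and EIF2B3 (gamma) forming the catalytic part and EIF2B1, EIF2B2 and EIF2B4 the regulatory core that senses phosphorylated eIF2. CDC123 binds the gamma subunit and promotes assembly of the eIF2 trimer.

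Among these genes, EIF2S3 and EIF2S2 have near-identical copies elsewhere in the genome, and their sequences are shown first because they limit how a short fragment can be assigned. The coding sequence of EIF2S3 and that of EIF2S3B are both 1419 nucleotides long. They align without a gap and differ at 25 positions (98.2% identity). Among 60-base stretches that start at a codon, the first with the most differences is shown. It spans coding bases 298 to 357, counted from 1 at the first base of the start codon, and holds 6 of the 25, in capitals below.
EIF2S3: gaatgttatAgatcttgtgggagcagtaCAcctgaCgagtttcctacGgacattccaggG
EIF2S3B: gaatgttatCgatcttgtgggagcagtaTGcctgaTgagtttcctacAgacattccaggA

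With the EIF2S3 base first, these substitutions are A307C, C326T, A327G, C333T, G345A and G357A. The longest stretch without any difference runs over 205 bases, from coding base 676 to 880, and no fragment that lies within it can be told apart between the genes.
EIF2S3 and EIF2S3B: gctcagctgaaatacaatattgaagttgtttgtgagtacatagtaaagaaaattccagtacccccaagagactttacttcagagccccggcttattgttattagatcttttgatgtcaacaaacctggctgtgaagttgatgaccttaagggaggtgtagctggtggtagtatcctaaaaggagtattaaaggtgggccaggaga

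EIF2S2 has 4 processed pseudogenes in the table, EIF2S2P2 to EIF2S2P5. EIF2S2P4 (chromosome 2, 170751805 to 170752788) is closest, with 98.9% identity over 984 aligned coding bases, 11 differing positions and an identical run of 269 bases. EIF2S2P3 (chromosome 10, 92668745 to 92669743) has 95.9% identity over 999 bases, and EIF2S2P2 and EIF2S2P5 have 94.9% and 91.2%. Coding bases 907 to 966 of EIF2S2 are shown with the copies. A capital marks a base that differs from EIF2S2, and in EIF2S2 itself a base that differs in either copy.
EIF2S2: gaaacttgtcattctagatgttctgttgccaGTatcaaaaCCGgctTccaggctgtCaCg
EIF2S2P4: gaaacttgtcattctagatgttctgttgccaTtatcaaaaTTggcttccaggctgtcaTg
EIF2S2P3: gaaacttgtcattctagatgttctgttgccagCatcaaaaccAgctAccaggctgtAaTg

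Across annotated transcripts (GENCODE release 29), 13.7% of the distinct 100-base words of EIF2S2 also occur in EIF2S2P4, and 39.5% of those of EIF2S2P4 occur in EIF2S2. For EIF2S3, 7.85% of its 100-base words occur in EIF2S3B, which is 11.9% of the words of EIF2S3B. The share was 0 for EIF2B5 with any other gene. In the other members the shared words lay in gene models that overlap on the opposite strand, such as DDX55 for EIF2B1 (11.4%), AL049780.3, listed at 0 in both libraries, for EIF2B2 (17.4%) and ATP6V1D for EIF2S1 (3.07%).

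The values are FPKM, fragments scaled by transcript length and library size, so levels can be compared between genes. The steps between low FPKM values gave 16577632 fragments for the library labelled DOX(-) and 18521263 for the one labelled DOX(+). Of 58302 genes, 11525 reached 1 FPKM in either library and entered the comparison. Of 6 promyelocyte markers, 5 reached 1 FPKM, summing to 1348 FPKM in the library labelled DOX(-) and to 1075 FPKM in that labelled DOX(+). The exception was MPO, the myeloperoxidase gene that defines the stage, at 0.274 and 0.469 FPKM. Whether this reflects the cells or how the deposited values were computed was not tested. All 3 T-cell and all 3 epithelial markers were listed at 0 in both libraries, fibroblast and erythroid markers summed to at most 0.154 FPKM, and B-cell markers summed to 1.94 and 0.949 FPKM, nearly all from CD79A (1.66 and 0.709 FPKM). The part of these differences in the results below was not tested. In each pair of values that follows, the library labelled DOX(-) comes first.

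All 10 genes entered the comparison, and 9 of them lay within 1.5-fold between the libraries on the log2(FPKM + 1) scale. The median log2 difference of the 10 was -0.01, against -0.02 over all genes compared, and it turned to 0.01 and 0.02 under median-of-ratios and trimmed-mean scaling. In bulk RNA, fewer expressing cells and less RNA per cell cannot be told apart. In the library labelled DOX(-) no member was 1.5-fold higher, while 3.11% of all genes compared were. The retrocopy EIF2S3B was the 1 member 1.5-fold lower there, against 4.06% of all genes, and 7.17% of all genes passed 1.5-fold in either direction. EIF2S3B entered the comparison only through its level in the library labelled DOX(+), so a difference was required of it. The quartiles of the log2 difference over all genes compared were -0.19 and 0.15, and of the members EIF2S3B, EIF2B3 and EIF2B5 lay outside them.

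**Figure D1:**
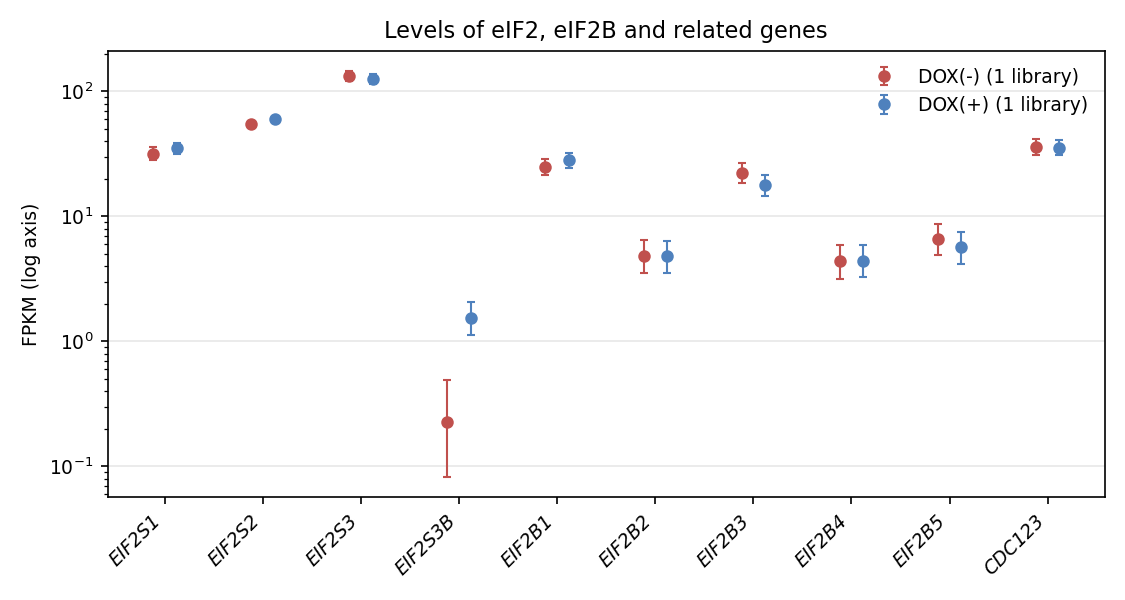
Level of each member in FPKM (log axis) in the library labelled DOX(-) (red) and the one labelled DOX(+) (blue), with bars for the exact 95% Poisson counting interval on the shortest annotated transcript. EIF2S3 is highest at 132.9 and 126.2 FPKM, and EIF2B2 and EIF2B4 lie between 4.39 and 4.84 FPKM. EIF2S3B, at 0.226 and 1.54 FPKM, entered only through the library labelled DOX(+), so nothing is read from its intervals.

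EIF2S3, the gene of the transgene, was set against the labels, and the clearly higher level they imply for the library labelled DOX(-) was not seen. It lies on chromosome X from 24054716 to 24077971 (ENSG00000130741, build GRCh38), and its level was 132.9 and 126.2 FPKM, a ratio of 1.05. Counting intervals are exact 95% intervals of the ratio, which cover counting error only, and they need a transcript length to turn FPKM into fragments. On the shortest annotated transcript, where fragments are fewest and the interval is widest, it ran from 0.927 to 1.196, and on the longest from 1.017 to 1.090. On the deposited scaling, a higher level in the library labelled DOX(-) by more than 1.20-fold is thus outside both intervals. The table has 1 row for EIF2S3, and whether fragments of the transgene were counted in it was not tested. Of the other genes compared, 1784 (15.5%) had a log2 difference within 0.05 of that of EIF2S3. It ranked 231 and 237 among the 11525 genes by level.

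EIF2S1 (chromosome 14, 67359997 to 67386516), the alpha subunit that the eIF2 kinases phosphorylate, stood at 31.8 and 35.0 FPKM. EIF2S2 (chromosome 20, 34088298 to 34112332), the beta subunit, stood at 55.2 and 59.8 FPKM. Both were thus slightly lower in the library labelled DOX(-), at ratios of 0.911 and 0.923, while EIF2S3 was slightly higher. EIF2S2 has a single annotated transcript of 2656 nucleotides, on which its FPKM came to 2432 and 2943 fragments, and its interval of 0.875 to 0.975 left out equal levels. That of EIF2S1 included them on its shortest transcript (0.775 to 1.070) and left them out on its longest (0.862 to 0.962).

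EIF2S3 mRNA was the most abundant of the eIF2 subunits per length in both libraries. Its level was 4.17-fold that of EIF2S1 in the library labelled DOX(-) and 3.61-fold in the one labelled DOX(+). The same ratio to EIF2S2 was 2.41 and 2.11, and EIF2S2 stood 1.73-fold and 1.71-fold above EIF2S1. EIF2S3 therefore took 60.4% and 57.1% of the summed FPKM of the subunits, EIF2S2 25.1% and 27.1%, and EIF2S1 14.5% and 15.8%. These ratios within a library do not depend on how the libraries are scaled to each other.

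Between the libraries the composition moved little. The ratio of EIF2S3 to EIF2S1 changed 1.16-fold, towards more EIF2S3 in the library labelled DOX(-), with an approximate counting interval (from the variance of log counts) of 0.945 to 1.415 on the shortest transcripts and 1.085 to 1.233 on the longest. The ratio of EIF2S3 to EIF2S2 was 1.14-fold higher, with intervals of 0.995 to 1.308 and 1.070 to 1.216. The ratio of EIF2S2 to EIF2S1 was 1.01-fold higher, with intervals of 0.858 to 1.198 and 0.939 to 1.094. Only on the longest transcripts did the intervals of the ratios with EIF2S3 leave out no change, and those of the ratio of EIF2S2 to EIF2S1 included it on both.

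**Figure D2:**
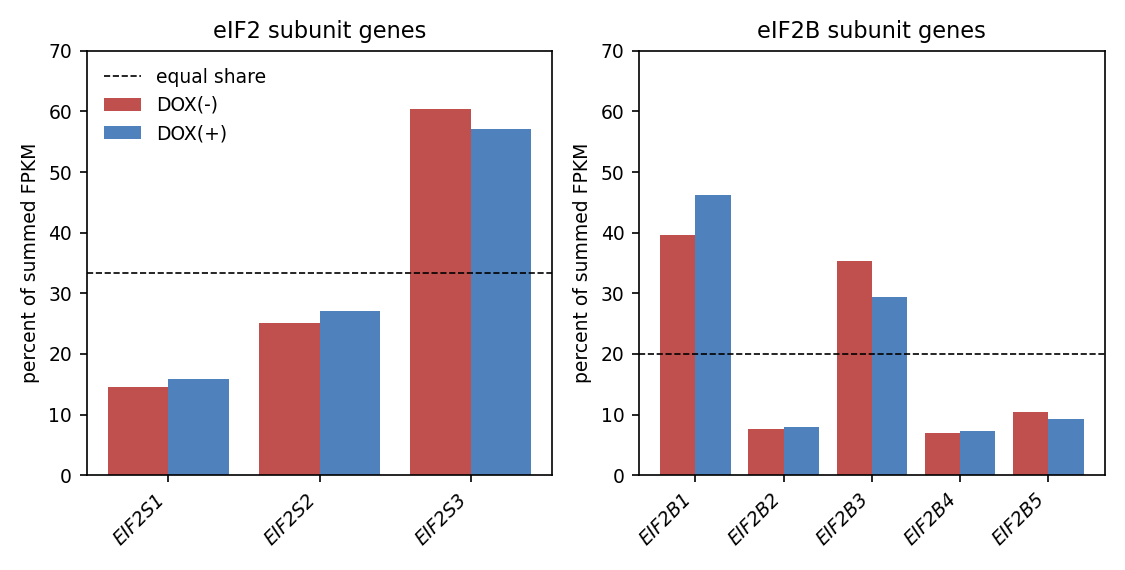
Share of each subunit gene in the summed FPKM of its complex (percent), for eIF2 (left) and eIF2B (right), in the library labelled DOX(-) (red) and the one labelled DOX(+) (blue), with a dashed line at equal shares. EIF2S3 takes 60.4% and 57.1% of eIF2, and EIF2B1 and EIF2B3 stand above the line in eIF2B in both libraries.

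The level of EIF2S2 depends on where fragments shared with its pseudogenes are placed. EIF2S2P4 was listed at 65.96 and 67.8 FPKM, above EIF2S2 itself by 1.19-fold and 1.13-fold. On its single transcript this is 1076 and 1235 fragments, both whole numbers, as for EIF2S2. EIF2S2P3 was listed at 6.64 and 4.65 FPKM (110 and 86 fragments), a ratio with an interval of 1.07 to 1.92. EIF2S2P2 held 1 fragment in each library and EIF2S2P5 was listed at 0 in both. Together the pseudogenes took 32.8% and 31.0% of all fragments of EIF2S2 and its copies. This share and the pooled level below take each fragment as counted at only 1 locus, which was not tested. With these fragments added to EIF2S2 on its own length, an alternative chosen after seeing the data, its level was 82.2 and 86.7 FPKM. Its ratio between the libraries was then 0.948, EIF2S3 stood 1.62-fold and 1.46-fold above it, and it stood 2.58-fold and 2.48-fold above EIF2S1. The order EIF2S3, EIF2S2, EIF2S1 held in both libraries either way.

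**Figure D3:**
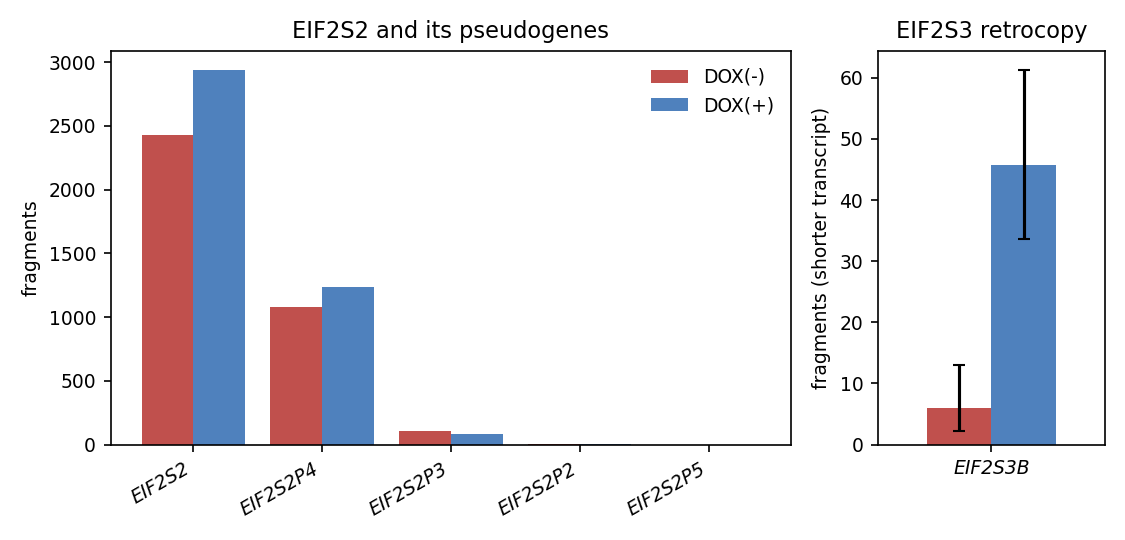
Fragments of EIF2S2 and its processed pseudogenes (left) and of EIF2S3B on the shorter of its transcripts (right, bars with exact 95% Poisson intervals), in the library labelled DOX(-) (red) and the one labelled DOX(+) (blue). EIF2S2P4 holds 1076 and 1235 fragments beside 2432 and 2943 for EIF2S2, and EIF2S3B holds about 6 and 46.

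EIF2S3B (ENSG00000180574, chromosome 12, 10505602 to 10523135) was the member with the largest difference. Its level was 0.226 FPKM without doxycycline by the label and 1.54 FPKM with it, a log2(FPKM + 1) difference of -1.05, or 6.84-fold lower in the first by plain FPKM. Of all genes compared, 1.2% were 2-fold or more lower on the log2(FPKM + 1) scale. On the shorter of its annotated transcripts, of 1602 nucleotides, the values correspond to 5.99 and 45.8 fragments, and the ratio of 0.146 had a counting interval of 0.0509 to 0.342. The level in the library labelled DOX(-) thus rests on about 6 fragments. EIF2S3B entered only through the library labelled DOX(+), where it is high, so this interval lends the difference no support. EIF2S3B amounted to 0.170% of the EIF2S3 level in the library labelled DOX(-) and 1.22% in the one labelled DOX(+). Because stretches of its coding sequence such as the 205-base run above are identical to EIF2S3, which fragments stem from the retrocopy itself was not tested, and its values are uncertain. Adding EIF2S3B to EIF2S3 gave a ratio between the libraries of 1.04.

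The eIF2B genes fell into a higher and a lower group by level, and the order was the same in both libraries. EIF2B1 (chromosome 12, 123620406 to 123633766), the alpha subunit that bridges the eIF2B core, stood at 25.02 and 28.2 FPKM. EIF2B3 (chromosome 1, 44850522 to 44986722), the gamma subunit of the catalytic part, stood at 22.4 and 17.9 FPKM. The other catalytic subunit gene, EIF2B5 (chromosome 3, 184135038 to 184145311), stood at 6.63 and 5.66 FPKM. The remaining core subunit genes EIF2B2 (chromosome 14, 75002911 to 75012366) and EIF2B4 (chromosome 2, 27364352 to 27370486) were lowest, at 4.82 and 4.84 FPKM and at 4.39 and 4.44 FPKM.

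Recessive mutations in any of these subunit genes cause vanishing white matter disease. Their mRNA levels were far from the equal copies of the subunits in the complex, and EIF2B1 stood 5.70-fold and 6.36-fold above EIF2B4. The step from EIF2B3 down to EIF2B5, 3.38-fold and 3.16-fold, was larger than counting error, with intervals of 2.42 to 4.82 and 2.21 to 4.51 on the shortest transcripts. EIF2B5 against EIF2B2, and EIF2B2 against EIF2B4, did not differ beyond counting error on the shortest transcripts in either library. EIF2B1 and EIF2B3 likewise did not in the library labelled DOX(-) (1.12-fold, interval 0.875 to 1.419). In the library labelled DOX(+) they did (1.57-fold, interval 1.247 to 2.02). On the longest transcripts EIF2B1 and EIF2B3 differed beyond counting error in both libraries (intervals 1.016 to 1.233 and 1.431 to 1.734). EIF2B5 and EIF2B2 did so as well (1.193 to 1.580 and 1.021 to 1.344), and EIF2B2 and EIF2B4 did not in either library.

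Between the libraries, EIF2B3 was the eIF2B gene that differed most, at a log2 difference of 0.31 and a plain ratio of 1.249. Its counting interval was 0.957 to 1.657 on the shortest of its 10 annotated transcripts. EIF2B5 followed at 0.19 (ratio 1.17, interval 0.770 to 1.757), and EIF2B1 went the other way at -0.17 (ratio 0.887, interval 0.721 to 1.084). EIF2B2 and EIF2B4 stood at ratios of 0.997 and 0.990, with intervals of 0.652 to 1.539 and 0.640 to 1.505. The genes of the catalytic part, EIF2B3 and EIF2B5, were thus both above 0 and those of the core below it, but every one of these intervals on the shortest transcripts included equal levels. On the longest they left equal levels out for EIF2B3 (1.121 to 1.392), EIF2B5 (1.028 to 1.332) and EIF2B1 (0.817 to 0.964), and included them for EIF2B2 and EIF2B4. The signs of EIF2B2 and EIF2B4 turned under other scalings.

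The opposite differences of EIF2B1 and EIF2B3 changed their ratio to each other. EIF2B1 stood 1.12-fold above EIF2B3 in the library labelled DOX(-) and 1.57-fold above it in the one labelled DOX(+), a change of 0.710-fold with approximate counting intervals of 0.510 to 0.989 on the shortest transcripts and 0.621 to 0.813 on the longest. This pair was singled out after its values were seen. EIF2B1 took 39.6% of the summed eIF2B FPKM in the first library and 46.2% in the second, and EIF2B3 35.4% and 29.3%. Relative to the geometric mean of the subunits, the eIF2B genes changed between 0.845-fold (EIF2B1) and 1.19-fold (EIF2B3), and each interval on the shortest transcripts included no change.

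**Figure D4:**
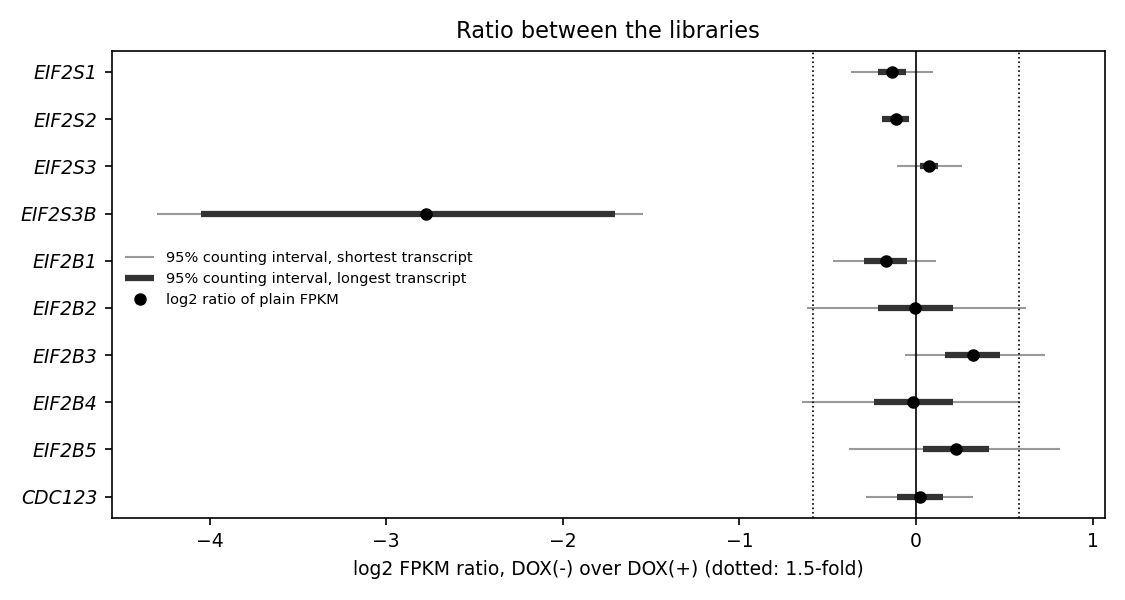
Log2 ratio of plain FPKM between the library labelled DOX(-) and the one labelled DOX(+) for each member (points), with 95% counting intervals on the longest (thick) and shortest (thin) annotated transcript and dotted lines at 1.5-fold. EIF2S3B lies far to the left at a ratio of 0.146, and the points of the other members lie inside the dotted lines.

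CDC123 (chromosome 10, 12195965 to 12250589), the assembly factor, stood at 36.1 and 35.5 FPKM, a ratio of 1.02 with an interval of 0.823 to 1.249. Its level lay between those of EIF2S2 and EIF2S1, and did not differ from EIF2S1 beyond counting error on the shortest transcripts in either library. On the longest, CDC123 stood above EIF2S1 beyond counting error in the library labelled DOX(-) (interval 1.048 to 1.223). In the one labelled DOX(+) CDC123 did not (0.944 to 1.091). EIF2S3, its binding partner, stood 3.69-fold and 3.56-fold above it. The sign of the CDC123 difference turned when the libraries were scaled to equal sums over nuclear protein-coding genes.

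Over the whole set, 2 of 10 ratios had a counting interval on the shortest transcripts that left out equal levels (EIF2S2 and EIF2S3B), where 16.1% of the genes compared did. EIF2S3B entered only through the library where it is high, so nothing is read from its part in the count. On the longest transcripts 7 of 10 did, where 41.6% of all genes did. Intervals narrow as fragments increase, and the median level of all genes compared was 4.70 and 4.88 FPKM. The shares over all genes, here and for the lists below, were not matched for level, so no excess is read from them. These intervals hold no variation between cultures.

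The factor and its exchange factor were also compared as complexes. The geometric mean of the eIF2 subunit genes was 61.6 and 64.2 FPKM and that of the eIF2B genes 9.53 and 9.07 FPKM. eIF2 mRNA thus stood 6.47-fold above eIF2B mRNA in the library labelled DOX(-) and 7.07-fold above it in the one labelled DOX(+). This ratio changed 0.914-fold, with an interval of 0.772 to 1.082 on the shortest transcripts, which included no change, and of 0.858 to 0.973 on the longest, which left it out. Taken at the lowest subunit of each, EIF2S1 over EIF2B4, the excess was 7.25-fold and 7.88-fold. With EIF2S3 left out of the eIF2 mean it was 4.40-fold and 5.04-fold, so eIF2 mRNA also exceeded eIF2B mRNA without the gene that the transgene carries.

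Some members share ground with other gene models. RALY overlaps the EIF2S2 locus on the opposite strand without a shared exon base and stood at 22.9 and 12.8 FPKM. DDX55 (4.78 and 5.92 FPKM) and GTF2H3 (4.43 and 3.79 FPKM) share 536 and 28 exon bases with EIF2B1, on the opposite strand. NUDT5 (10.5 and 10.7 FPKM) shares 180 with CDC123, ATP6V1D (2.52 and 2.46 FPKM) shares 269 with EIF2S1, and the antisense gene AC074117.1 (0.634 and 1.15 FPKM) shares 199 with EIF2B4, all on the opposite strand. Whether the libraries kept strand was not given, so fragments of these stretches could count for either gene. Another 6 overlapping models lay under 1 FPKM in both libraries. EIF2S3 and EIF2S3B overlap no other listed model.

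The other genes of the eIF2 cycle came from 5 lists, and all 25 listed genes entered the comparison. In the library labelled DOX(-), 1 was 1.5-fold higher and none was 1.5-fold lower on the log2(FPKM + 1) scale, beside 3.11% and 4.06% of all genes. Their median log2 difference was -0.06, and 9 lay above 0 and 16 below, or 11 and 14 under median-of-ratios or trimmed-mean scaling. The gene past 1.5-fold was EIF1, the start-codon fidelity factor that works beside eIF2 in the scanning complex, at 14.7 and 8.94 FPKM (ratio 1.65, interval 1.26 to 2.16). Shared sequence was examined only for the members and the EIF2S2 pseudogenes, so whether fragments of EIF1 or other list genes were shared with copies was not tested.

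On the log2(FPKM + 1) scale the 7 genes of the eIF2 kinases and their regulators lay within 1.5-fold, with a median of 0.14, but EIF2AK3 passed 1.5-fold with a pseudocount of 0.1 or 0.01 FPKM. EIF2AK3, the kinase PERK of the endoplasmic reticulum, stood at 3.33 and 1.97 FPKM (log2 difference 0.55, plain ratio 1.69, interval 0.924 to 3.22). GCN1, the ribosome-bound activator of the kinase GCN2, stood at 33.5 and 29.2 FPKM (0.19, interval of the ratio 0.904 to 1.462). None of the 7 intervals on the shortest transcripts left out equal levels, beside 16.1% of all genes. On the longest, 6 of the 7 left them out, beside 41.6%, a share not matched for level. The 5 phosphatase genes also lay within 1.5-fold on that scale, with a median of -0.03. Intervals left out equal levels for 1 of these 5 on the shortest transcripts, beside 16.1% of all genes, and for 2 on the longest, beside 41.6%. PPP1CB, a catalytic subunit of protein phosphatase 1, stood at 12.5 and 16.4 FPKM (-0.36). Its interval was 0.536 to 1.077 on the shortest transcript and 0.704 to 0.827 on the longest. PPP1R15B, the constitutive subunit that directs the phosphatase to eIF2 alpha, stood at 32.5 and 36.2 FPKM (-0.15, interval 0.854 to 0.943).

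The 8 partners of eIF2 in initiation had a median of -0.16, with 7 below 0 and only EIF1 above it (6 below under median-of-ratios or trimmed-mean scaling). EIF5B, the GTPase of subunit joining, stood at 33.0 and 46.8 FPKM (-0.49, interval of the ratio 0.611 to 0.815). Intervals left out equal levels for 3 of the 8 partners on the shortest transcripts, beside 16.1% of all genes, and for 5 on the longest, beside 41.6%. Of the 3, only EIF1 was higher in the library labelled DOX(-). The 4 other factors that can deliver methionyl-tRNA had a median of -0.04. DENR stood at 34.2 and 43.2 FPKM (-0.33, interval of the ratio 0.691 to 0.903), and MCTS1, whose product pairs with that of DENR, at 4.15 and 4.44 FPKM (-0.08, interval 0.529 to 1.568). MARS, whose product charges the tRNA that eIF2 carries with methionine, stood at 15.1 and 13.7 FPKM (0.13, interval 0.726 to 1.719).

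**Figure D5:**
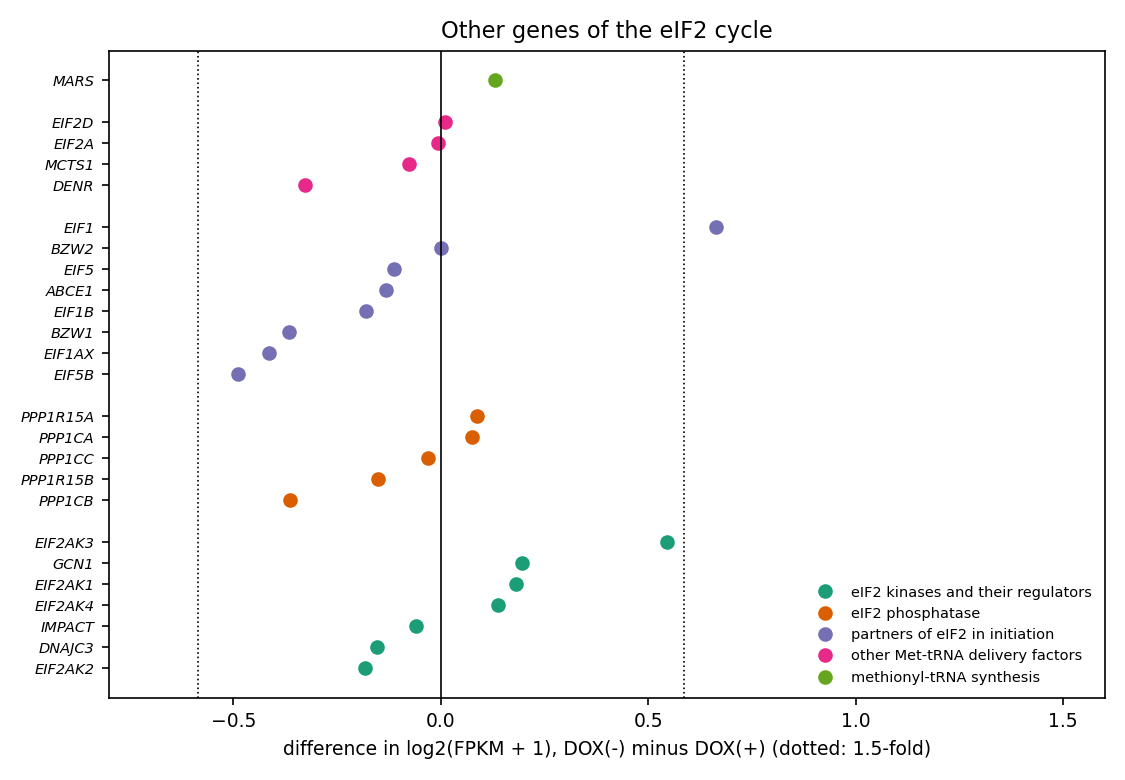
Difference in log2(FPKM + 1), the library labelled DOX(-) minus the one labelled DOX(+), for the 25 other genes of the eIF2 cycle, grouped and coloured by list, with dotted lines at 1.5-fold. EIF1 lies beyond the right line at 0.66 and EIF2AK3 just inside it at 0.55, and no gene lies beyond the left line.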

How the data were processed

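The authors deposited gene levels as FPKM, 1 column per library, per the file headers. StringTie 1.3.4b, HISAT2 2.1.0, CASAVA 1.8 and edgeR, with GRCh38 and hg38, are named without roles in the submitters' processing notes. Annotation, read length and strandedness are not given in the sources used here. Members, gene lists and the naming rule (all members, list genes past 1.5-fold and the 2 in each list that differed most at 2 FPKM or more, and copies and overlapping models at 1 FPKM or more) were chosen with earlier results of these data known.

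Genes that reached 1 FPKM in either library were compared as log2(FPKM + 1), which understates differences of low genes. With 1 library per condition no test was run. Library totals were recovered from genes with 1 annotated transcript of 300 nucleotides or more: of values up to 100 fragments, 99.5% in each library (4417 and 4716 genes) came out whole within 0.02 fragment. The floor of 3 fragments equals 0.181 and 0.162 FPKM at 1 kb. Intervals cover counting error only, since no molecular identifiers were named. Transcript lengths, coding sequences and 50-base and 100-base words came from GENCODE release 29, where 9 of 10 member loci were the same (EIF2B5 differed). Sequences were aligned with Biopython 1.88. The fold rule and intervals were tested on simulated Poisson counts with known transcript lengths. Uncertain lengths, fragments shared between copies and variation between cultures were not simulated, so that test does not bear on them.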

Additional observations from a re-analysis of the deposited data

How the results depend on the processing

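Of 61 values recomputed under an alternative, 55 stayed within their interval or within 1.5 times their count. Not all of the 55 could have moved. The EIF2S3 ratio kept its value by definition when only its interval was taken on the longest transcript. That interval left out equal levels (1.017 to 1.090) on the deposited scaling. Intervals of ratios between the libraries were not recomputed under the other scalings. The 55 also include counts that were 0 under both settings. Ratios were judged by their intervals on the shortest transcripts, which are the widest. The exceptions to the 55 were counts. The number of members 1.5-fold lower in the library labelled DOX(-) went from 1 to 0 with a minimum of 5 FPKM, which removed EIF2S3B and left 7 members. The number of eIF2-cycle genes 1.5-fold higher went from 1 to 2 with a pseudocount of 0.1 or 0.01 FPKM, to 0 at 2-fold and to 2 at a fold threshold below 1.5, and at that threshold the number lower went from 0 to 5. Scaling between libraries moved the EIF2S3 ratio between 1.03 and 1.07 and turned the signs of EIF2B2, EIF2B4 and CDC123. The log2 difference of EIF2S3B was -2.72 with a pseudocount of 0.01 FPKM. Depth limits EIF2S3B most, and EIF2B2, EIF2B4 and EIF2B5 next, which held 44 to 51 fragments per library on their shortest transcripts. No paired analysis was possible because each condition has 1 library.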
